A study of Mus musculus with 12 samples.

Results

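The T cell receptor complex, its coreceptors and the kinases next to them were followed across 12 CT-26 tumors. The 10 genes were chosen by name: the CD3 chains Cd3d, Cd3e, Cd3g and Cd247, the coreceptor chains Cd8a, Cd8b1 and Cd4, the kinases Lck and Zap70, and the adhesion receptor Cd2. All 10 were found, by their mouse Ensembl identifiers, among the 30630 genes listed for every tumor. CT-26 is a colon carcinoma line of BALB/c mice. The cells were mixed with Matrigel and injected under the skin of the right flank of male BALB/c mice, which were bought at 4 to 6 weeks of age. Mice of the swimming group then swam for 3 weeks, on 6 days of each week and 2 times daily, for up to 30 min, and no swimming is described for the control group. Of 10 mice in each group, 6 control and 6 swimming tumors were sequenced after removal of ribosomal RNA. No transgene or deletion is named for either group. The whole tumor was used, so T cells, other leukocytes, stroma and carcinoma cells contributed to every value. In such bulk samples fewer T cells and less RNA per T cell cannot be told apart. The labels give CT-26 cells as the cell type. The epithelial keratin gene Krt18 was between 5.89 and 14.8 FPKM in every tumor, while Epcam, an epithelial surface protein, was at or near 0 (at most 0.177 FPKM).

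The receptor on a T cell recognizes a peptide held by an MHC molecule with its alpha and beta chains, which have almost no tail inside the cell. The signal is carried by the CD3 gamma, delta and epsilon chains and by the zeta chain, which is encoded by Cd247. CD8 or CD4 binds the same MHC molecule and brings the kinase LCK to the complex, LCK adds phosphate to tyrosines of the CD3 and zeta tails, and ZAP-70 docks there and passes the signal on. CD8 marks cytotoxic T cells and CD4 marks helper and regulatory T cells, and both kinds are found in tumors grown under the skin.

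Values are FPKM, the number of read pairs of a gene divided by its length and by the depth of the tumor, so levels of different genes are on 1 scale. Fold changes were computed from log2(FPKM + 1), which understates changes of genes as weak as these, with limma fitted over 19018 genes. All 10 genes were among those tested and were above 0 in all 12 tumors. Levels were low: 4 of the 10 genes had a mean of at least 1 FPKM over the 12 tumors, and Cd4 and Cd247 stayed below 1 FPKM in every tumor. Steps in the FPKM values of weak genes, if each is taken as 1 read pair, put the depth at about 12.4 M (control 2) to 17.8 M read pairs per tumor. Under that reading, Cd8b1, which has a single transcript, rested on about 16.8 to 112 read pairs per tumor. Cd247 rested on about 2.77 to 20.8 if the length of its longest coding transcript is taken. Its median over the tumors was about 11.4 with that length and 5.10 with the shortest coding transcript. Low values also fell on steps 1/4 as large (99.5 to 99.7% of them per tumor, within 0.1 of such a step), so these numbers depend on which step is taken as 1 read pair. Controls 1 and 4 stood apart from the other tumors. In control 1 the summed FPKM of 5 B cell genes was 5.91, against 0.416 to 0.777 in the other controls. That of 4 fat cell genes was 73.8 in control 1, against 6.66 to 11.6 in the other controls. In control 4 the summed FPKM of 4 epithelial genes was 144, most of it from Krt8 (129), against 9.29 to 30.4 in the other 11 tumors. Results are therefore also given without these tumors.

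Swimming tumors had the higher mean for all 10 genes, by 1.37-fold (Cd4) to 2.24-fold (Cd2). The groups overlapped for every one of them. At an unadjusted limma p below 0.05, 5 of the 10 were higher in the swimming group: Cd3d, Cd3g, Cd8a, Cd8b1 and Cd2. Among all genes tested, 3.11% were higher at the same threshold, and 3.89% of the 5812 genes with a mean level between those of Cd247 and Lck. None of the 10 was past the threshold after Benjamini-Hochberg adjustment over the 19018 genes, where their adjusted p in limma's test ranged from 0.889 to 0.922. That adjustment left 0 genes of the whole table, against 1058 at an unadjusted p below 0.05, and the smallest adjusted p was 0.204. The 10 genes had a median log2 fold change of 0.39 and all genes tested one of 0.0039. A higher mean in the swimming group was found for 51.7% of all genes tested and 54.7% of those 5812.

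**Figure D1:**
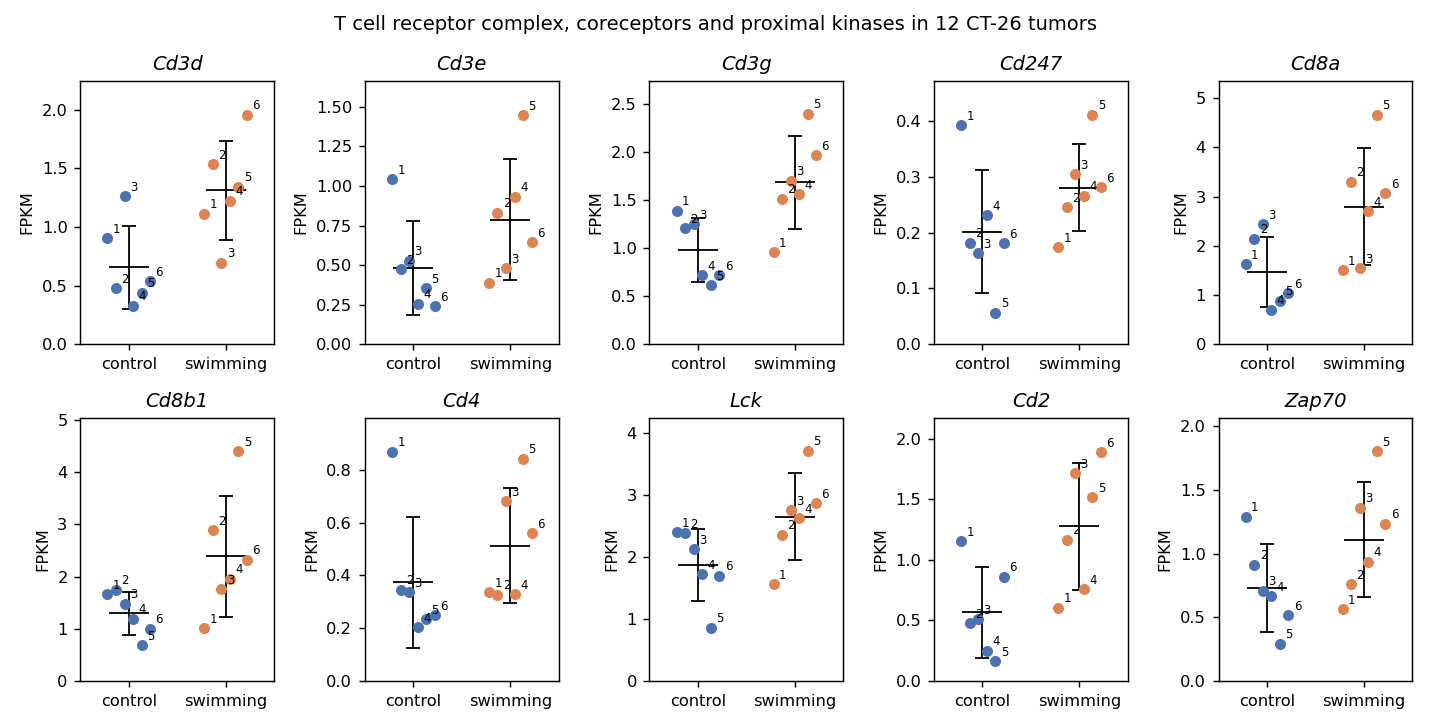
FPKM (vertical axis, each panel on its own linear scale from 0) of the 10 genes in 6 control and 6 swimming tumors, with each point labelled by its tumor number, and the mean and SD of each group in black. The swimming mean is higher in every panel, from 1.37-fold for Cd4 to 2.24-fold for Cd2, and the groups overlap in all of them.

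The 4 CD3 chains share a stretch in their tails, the immunoreceptor tyrosine-based activation motif, whose 2 tyrosines are the sites that LCK phosphorylates. Cd3d, Cd3e and Cd3g each encode it 1 time and Cd247 3 times, so the zeta chain carries as many of these motifs as the other chains put together. The coding DNA of the 6 motifs is shown 5′ to 3′ because it is the part that these members have in common. It is from GENCODE M21 transcripts, with coordinates on GRCm38 and the codons of the 2 motif tyrosines in capitals. Each motif is split over 2 coding exons, and its coordinates therefore span an intron.
Cd3d, chr9:44986095-44986311, plus strand: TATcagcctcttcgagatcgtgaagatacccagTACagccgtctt
Cd3e, chr9:44999549-45000440, minus strand: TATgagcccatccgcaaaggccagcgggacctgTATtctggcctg
Cd3g, chr9:44970735-44971268, minus strand: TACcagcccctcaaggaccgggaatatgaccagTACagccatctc
Cd247 first motif, chr1:165856451-165857454, plus strand: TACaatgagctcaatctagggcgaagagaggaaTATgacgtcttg
Cd247 middle motif, chr1:165858473-165859260, plus strand: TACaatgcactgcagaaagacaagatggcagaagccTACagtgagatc
Cd247 last motif, chr1:165859819-165861042, plus strand: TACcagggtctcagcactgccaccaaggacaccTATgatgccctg

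Cd3d encodes the CD3 delta chain and lies at chr9:44981786-44987339 on the plus strand. Its level in the control group was 0.327 FPKM at the lowest, 0.509 at the median and 1.26 at the highest, and in the swimming group 0.695, 1.28 and 1.96 FPKM. All 6 swimming tumors were above the control median, but control 3 and control 1 reached into the range of the swimming group, whose lowest tumor was swimming 3. The mean was 0.658 ± 0.354 FPKM in controls and 1.31 ± 0.423 FPKM in swimming tumors (SD, n = 6 each). This gave a log2 fold change of 0.48 ± 0.15 (SE), with a 95% interval of 0.16 to 0.81 and an unadjusted limma p of 0.00630. The exact permutation test over all 924 divisions of the tumors, two-sided, gave p = 0.0195.

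Cd3g, the CD3 gamma gene, lies at chr9:44969572-44980431 on the minus strand, 1354 bases from Cd3d, and is read in the opposite direction. Control tumors ranged from 0.611 to 1.39 FPKM with a median of 0.962, and swimming tumors from 0.953 to 2.40 FPKM with a median of 1.63. Swimming 2 to 6 were above every control tumor, and swimming 1 was just below the control median. On the log2 scale the fold change was 0.43 ± 0.14 (SE; limma, unadjusted p = 0.00794; exact permutation p = 0.0216).

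Cd3e encodes the epsilon chain, which pairs with both delta and gamma, and lies 11400 bases from Cd3d at chr9:44998740-45009627 on the minus strand. Its values were 0.240, 0.415 and 1.04 FPKM (lowest, median and highest) in controls and 0.389, 0.739 and 1.45 FPKM in swimming tumors. Control 1 was far above the other controls, which did not exceed 0.528 FPKM, and swimming 5 was the highest tumor of all. With control 1 included, the log2 fold change was 0.27 ± 0.15 (SE; limma, unadjusted p = 0.0967; exact permutation p = 0.134). Without control 1 it was 0.36, with an unadjusted limma p of 0.0180, and without swimming 5 it was 0.17, with one of 0.225. The exons of Cd3e overlap those of the antisense gene Gm48719, whose mean was 0.0390 FPKM. The library kit is not named as strand-specific, and reads that lie wholly within the overlap could then not be told apart.

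Cd247, the zeta chain gene, lies on another chromosome at chr1:165788681-165877277 and was the weakest of the 10 genes. Control tumors ranged from 0.0564 to 0.392 FPKM with a median of 0.182, and swimming tumors from 0.173 to 0.411 FPKM with a median of 0.273. Control 1 and swimming 5 were close to each other at the top, and control 5 was the lowest. The log2 fold change was 0.09 ± 0.07 (SE; limma, unadjusted p = 0.174; exact permutation p = 0.167). Without control 1 it was 0.14, with an unadjusted limma p of 0.0337, and without control 5 it was 0.058, with one of 0.372. Its 95% interval, from -0.05 to 0.24 on a scale that compresses such low values, does not show that the level was the same. Exons of Cd247 overlap those of Pou2f1 on the opposite strand, at a mean of 2.99 FPKM, which is above that of Cd247 itself. Without strand, reads that lie wholly within the overlap cannot be told apart, and the extent of the overlap was not measured.

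The antigen-binding chains, which are not among the 10 genes, also had higher means in the swimming group. For Trac, the alpha chain constant region, the mean was 1.52 ± 0.797 FPKM in controls and 2.66 ± 0.790 FPKM in swimming tumors. All 6 swimming tumors were above its control median, with a log2 fold change of 0.58 ± 0.22 (SE; limma, unadjusted p = 0.0203). The beta chain constant regions Trbc1 and Trbc2, which are close copies and may share reads, had means of 3.69 and 3.76 FPKM in the control group and 7.07 and 6.11 FPKM in the swimming group. Their log2 fold changes were 0.74 and 0.67 (limma, unadjusted p = 0.0342 and 0.0174). A sum of 8 T cell genes, made of these 3, the CD3 chains and Cd2, was 5.58 to 20.2 FPKM in controls and 13.4 to 31.5 FPKM in swimming tumors. Ptcra, the stand-in for the alpha chain in immature thymocytes, was too low to be tested.

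The mouse genes of the CD3 gamma and delta chains start close to each other and are read outward from a shared stretch. Promoter sequence is shown for this pair alone. Both genes had higher means in the swimming group, as all 10 genes did. The 250 bases before each start are from the RefSeq promoter table on GRCm38.p6, where 7 of the 10 genes were matched with 10 starts. Cd8b1, Cd4 and Cd2 were not in it. Letters in capitals are exact matches, on either strand, to short core motifs of factor families known from T cells. The GATA core was spelled AGATAA and the ETS core AGGAAG. The E box was spelled CACCTG, with CAGCTG as its other form. A RUNX core, TGTGGT, was searched as well. None of the capitals below belong to 2 motifs.
Cd3d promoter, chr9:44981536-44981785, plus strand: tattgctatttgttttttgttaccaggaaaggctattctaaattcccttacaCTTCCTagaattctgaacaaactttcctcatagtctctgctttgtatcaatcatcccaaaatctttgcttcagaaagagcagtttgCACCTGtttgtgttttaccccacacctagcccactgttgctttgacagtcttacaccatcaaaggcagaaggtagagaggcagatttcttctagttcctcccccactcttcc
Cd3g promoter, chr9:44980432-44980681, minus strand: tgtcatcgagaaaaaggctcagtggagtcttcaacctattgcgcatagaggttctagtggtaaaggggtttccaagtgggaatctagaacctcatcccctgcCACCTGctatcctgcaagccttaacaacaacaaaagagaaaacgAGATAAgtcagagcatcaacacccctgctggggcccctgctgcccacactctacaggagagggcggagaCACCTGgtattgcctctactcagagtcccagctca
The Cd3d stretch held 1 ETS and 1 E box match, and the Cd3g stretch held 1 GATA and 2 E box matches. Over the 10 starts of the matched genes, the ETS letters were found in 7, the E box in 6, RUNX in 2 and GATA in 1. Of 32851 promoter stretches of the same length, 29.5% held the ETS letters, 27.7% the E box, 14.0% RUNX and 9.99% GATA. Matches this short are common and describe the letters alone, not the binding of a factor.

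CD8 is made of an alpha and a beta chain, while CD4 acts alone. The tails of CD8 alpha and CD4 hold a pair of cysteines that grip a pair of cysteines near the start of LCK with a zinc ion between them, and the tail of CD8 beta has no such pair. The coding DNA of these contacts is shown 5′ to 3′ with the cysteine codons in capitals, since they join the coreceptors and the kinase among the 10 genes. Source and build are those of the motifs above. The Cd8a and Cd4 stretches span an intron.
Cd8a, chr6:71375890-71376869, plus strand: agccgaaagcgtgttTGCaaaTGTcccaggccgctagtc
Cd4, chr6:124866266-124866632, minus strand: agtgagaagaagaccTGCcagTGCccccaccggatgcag
Lck, chr4:129558099-129558146, minus strand: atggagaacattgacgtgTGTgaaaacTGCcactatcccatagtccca

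Cd8a, at chr6:71373427-71379173, showed the largest log2 fold change of the 10 genes with this pseudocount. Its values were 0.705, 1.33 and 2.44 FPKM (lowest, median and highest) in controls and 1.50, 2.89 and 4.66 FPKM in swimming tumors. Controls 4, 5 and 6 were below all swimming tumors, and swimming 2, 4, 5 and 6 were above all controls, so that swimming 1 and 3 and controls 1, 2 and 3 made up the overlap. The mean was 1.47 ± 0.710 FPKM in controls and 2.80 ± 1.19 FPKM in swimming tumors (SD, n = 6 each). The fitted log2 fold change was 0.61 ± 0.23 (SE; 95% interval 0.12 to 1.10; limma, unadjusted p = 0.0187; exact permutation p = 0.0455).

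Cd8b1 lies 35932 bases away at chr6:71322788-71337494. Control tumors ranged from 0.679 to 1.75 FPKM with a median of 1.34, and swimming tumors from 1.01 to 4.40 FPKM with a median of 2.14. Swimming 5 was the highest, swimming 2 to 6 were all above the highest control, and swimming 1 was below the control median. Its log2 fold change was 0.52 ± 0.20 (SE; limma, unadjusted p = 0.0250; exact permutation p = 0.0368). Without swimming 5 it was 0.37, with an unadjusted limma p of 0.0522. Without control 5 or swimming 2 it was 0.43 or 0.46, with an unadjusted limma p of 0.0597 or 0.0536.

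Both CD8 chains varied together over the 12 tumors. Pearson's r of Cd8a and Cd8b1 on the log2 scale was 0.90 (permutation p = 7.0e-05, adjusted over 9 pairs 0.00063) and Spearman's rho was 0.90 (permutation p = 0.0002, adjusted 0.0018). Without swimming 5 and control 4, the 2 tumors farthest from the median of Cd8a, r was again 0.90. Within the control group r was 0.75 and within the swimming group 0.93. The ratio of Cd8b1 to Cd8a had a geometric mean of 0.886, from 0.624 in control 3 to 1.60 in control 4. It did not differ between the groups beyond their spread (difference in log2 ratio -0.14, exact permutation p = 0.569).

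Cd4, at chr6:124864692-124888221, was the second weakest gene. Its values were 0.203, 0.293 and 0.870 FPKM (lowest, median and highest) in controls and 0.327, 0.448 and 0.843 FPKM in swimming tumors. The highest of all 12 tumors was control 1, the other 5 controls did not exceed 0.346 FPKM, and all 6 swimming tumors were above the control median. This gave a log2 fold change of 0.14 ± 0.12 (SE; 95% interval -0.11 to 0.40; limma, unadjusted p = 0.243; exact permutation p = 0.310). Without control 1 it was 0.24, with an unadjusted limma p of 0.0254, and without swimming 5 it was 0.085, with one of 0.474.

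Cd8a was above Cd4 in all 12 tumors. The ratio of Cd8a to Cd4 (with 0.1 FPKM added to each) had a geometric mean of 3.91 over the 12 tumors. It ranged from 1.78 in control 1 to 7.96 in swimming 2. On the log2 scale it was 1.73 ± 0.62 in controls and 2.21 ± 0.68 in swimming tumors (SD, n = 6 each), a difference of 0.48 that was within the spread (exact permutation p = 0.223, adjusted over 11 ratios 0.721). With each tumor left out in turn the difference was 0.30 (without control 1) to 0.71 (without swimming 3). CD8 alpha is also carried by a kind of dendritic cell, and macrophages of some species carry CD4. Of 5 markers of type 1 conventional dendritic cells, 2 were higher in the swimming group at an unadjusted limma p below 0.05, beside 3.11% of all genes tested. These were Xcr1, whose groups did not overlap, as for 0.0789% of all genes tested that were higher (0.182 to 0.265 FPKM in controls against 0.295 to 0.996 FPKM), and Flt3. The summed level of the 5 markers was 1.00 to 3.41 FPKM in controls and 2.01 to 3.51 FPKM in swimming tumors. The summed level of 6 macrophage markers was 569 to 851 FPKM and 665 to 984 FPKM, with none of the 6 below an unadjusted p of 0.05. The part of these cells in the Cd8a and Cd4 values was not tested.

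LCK is the first kinase of the pathway, and its gene, at chr4:129548344-129573641, had the highest mean level of the 10. Control tumors ranged from 0.857 to 2.40 FPKM with a median of 1.93, and swimming tumors from 1.56 to 3.72 FPKM with a median of 2.69. Swimming 3 to 6 were above all controls, swimming 2 lay among the highest controls, and swimming 1 was below the control median. On the log2 scale the fold change was 0.35 ± 0.16 (SE; limma, unadjusted p = 0.0504; exact permutation p = 0.0649). Without control 5, the lowest tumor, it was 0.23, with an unadjusted limma p of 0.114. Lck is also made by NK cells.

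Zap70 encodes the kinase that docks on phosphorylated CD3 and zeta tails and lies at chr1:36761798-36782818. Control tumors ranged from 0.291 to 1.29 FPKM with a median of 0.687, and swimming tumors from 0.564 to 1.80 FPKM with a median of 1.09. Swimming 3 and 5 were above every control, and control 1 was above swimming 6. The log2 fold change was 0.28 ± 0.16 (SE; limma, unadjusted p = 0.0928; exact permutation p = 0.126). NK cells use this kinase too. Of 5 NK markers fixed, Klra8 and Klra4 were not listed in the files, Klrb1c was at most 0.193 FPKM, and 1 of the 3 tested, Klrk1, was higher at an unadjusted limma p below 0.05 (3.11% of all genes tested). Klrk1 is also carried by activated CD8 T cells. The summed NK markers were 1.11 to 2.55 FPKM in controls and 1.09 to 4.01 FPKM in swimming tumors, and the part of NK cells in Lck, Zap70, Cd247 and Cd2 was not tested.

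Cd2, an adhesion receptor of T and NK cells that binds CD48 in mice, lies at chr3:101275899-101287939. Its values were 0.164, 0.492 and 1.15 FPKM (lowest, median and highest) in controls and 0.605, 1.34 and 1.89 FPKM in swimming tumors. All 6 swimming tumors were above the control median, and swimming 1 and swimming 4 fell below controls 1 and 6. The mean was 0.568 ± 0.375 FPKM in controls and 1.28 ± 0.521 FPKM in swimming tumors (SD, n = 6 each). The fitted log2 fold change was 0.54 ± 0.18 (SE; 95% interval 0.15 to 0.92; limma, unadjusted p = 0.0101; exact permutation p = 0.0216).

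**Figure D2:**
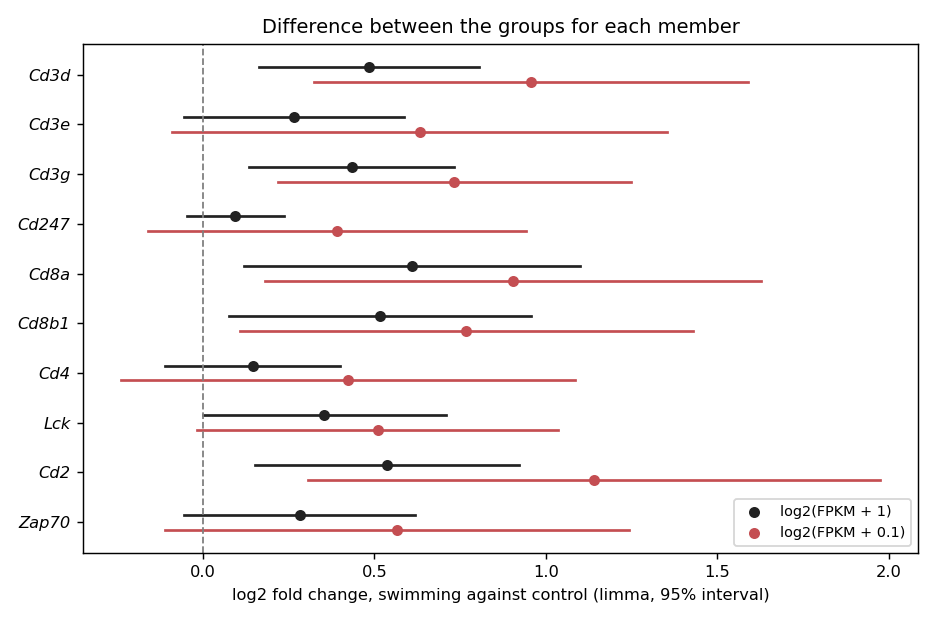
Log2 fold change (horizontal axis, swimming against control, limma) of the 10 genes with its 95% interval, on log2(FPKM + 1) in black and on log2(FPKM + 0.1) in red. All 20 estimates lie above 0, between 0.09 and 0.61 in black and between 0.39 and 1.14 in red, and the intervals of 5 genes in each color stay above 0.

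The added constant set the size of these differences. With 0.1 in place of 1, the 10 genes had a median log2 fold change of 0.68 instead of 0.39, and Cd2 had the largest value, 1.14. The number at an unadjusted p below 0.05 was again 5 in limma's test, against 3.1% of all genes tested that were higher at that threshold. All 6 swimming tumors were above the control median for 4 of the 10 genes (Cd3d, Cd8a, Cd4 and Cd2), against 5.38% of all genes tested. At least 5 of 6 were above it for all 10, and the share of all genes tested that reached this was not computed. In no case did all swimming tumors exceed all controls, which was found for 0.0789% of all genes tested.

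In order of mean level over the 12 tumors, the genes were Lck (2.26 FPKM), Cd8a (2.13), Cd8b1 (1.84), Cd3g (1.33), Cd3d (0.985), Cd2 (0.922), Zap70 (0.920), Cd3e (0.635), Cd4 (0.443) and Cd247 (0.241). Neighbors in this order differed by less than the larger of their SDs over tumors in every case. Within single tumors some of the order was steady, since Cd8b1 was above Cd3g in 12 of 12 and Cd4 above Cd247 in 11 of 12. The chains of the complex were not at equal levels. With 0.1 FPKM added to each gene, the geometric mean ratio to Cd3e was 2.02 for Cd3g, 1.47 for Cd3d and 0.492 for Cd247. Cd3g was above Cd3e in all 12 tumors, and Cd247 was below Cd3e in all 12. Each of these genes has several transcripts, and FPKM depend on the lengths assigned to them.

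No ratio between the genes differed between control and swimming tumors beyond the spread within the groups. For the 11 ratios between members, or of Cd3e to the leukocyte gene Ptprc, the exact permutation p ranged from 0.223 to 0.827 and the adjusted p from 0.721 to 0.827. The ratio that differed most was Cd2 to Cd3e, by 0.51 on the log2 scale (exact permutation p = 0.238), and with each tumor left out it was 0.31 (without swimming 3) to 0.78 (without control 6). With 6 tumors in each group such ratios were spread widely, with SDs of 0.20 to 0.75 on the log2 scale, and differences of that size could be missed.

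**Figure D3:**
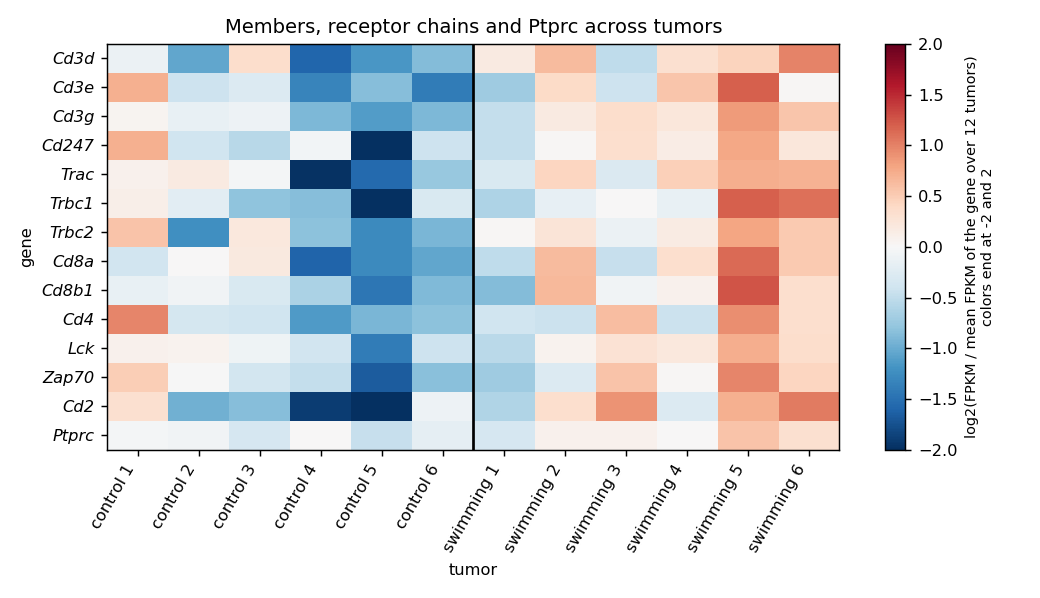
Log2 of FPKM over the gene's mean of 12 tumors (color, blue below and red above the mean, with colors ending at -2 and 2) for the 10 genes, 3 receptor chain genes and Ptprc in each tumor. Controls 4 to 6 are mostly blue, swimming 5 is red in every row, and control 1 has the darkest red of its group for Cd4, Cd3e and Cd247.

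The same tumors were high or low for most of the genes. Summed FPKM of the 10 genes were 12.7, 10.3, 10.8, 6.26, 4.57 and 7.04 in controls 1 to 6. They were 8.21, 14.9, 13.0, 13.3, 22.5 and 16.8 in swimming tumors 1 to 6. Control 5 was the lowest of the 12 tumors for 6 genes, and swimming 5 the highest for 7. Swimming 2 to 6 were above the control median for all 10 genes and swimming 1 for 4. All 45 pairs of the 10 genes correlated positively over the 12 tumors, with r between 0.39 (Cd3d and Cd4) and 0.93 (Lck and Zap70) and a median of 0.76. Taken as deviations from the group means, the median r was 0.70 and the range 0.18 to 0.91. The points of such a correlation share the library, its depth and its content of T cells.

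Of the 9 pairs fixed for testing, 8 had a permutation p of Pearson's r below 0.05 after adjustment. Group means were not removed for these tests, so a difference between the groups shared by 2 genes enters r and its p. Cd3e with Cd8a gave r = 0.81 (permutation p = 0.00143, adjusted 0.00643) and rho = 0.84 (permutation p = 0.00125, adjusted 0.00562). Without swimming 5 and control 1, r was 0.89. Within the control group it was 0.55 and within the swimming group 0.91. Cd3e with Cd4 gave r = 0.72 (permutation p = 0.00842, adjusted 0.0108) and rho = 0.69 (permutation p = 0.0159, adjusted 0.0205). This relation rested on control 1 and swimming 5, without which r was 0.34. It was 0.97 within the control group and 0.39 within the swimming group. Cd3d with Cd3g (r = 0.73) and Cd3e with Cd247 (0.75), Lck (0.73), Zap70 (0.75) and Ptprc (0.67) were also weaker without the 2 outermost tumors, at 0.46 to 0.63. Their adjusted permutation p was 0.0108 to 0.0198 with all tumors and 0.128 to 0.219 without those. Spearman's rho of these 5 pairs was 0.55 to 0.80 (adjusted permutation p from 0.00882 to 0.0659). Pearson's r was 0.21 to 0.80 within the control group and 0.28 to 0.76 within the swimming group. The pair of Cd3e and Cd2 gave r = 0.56 (permutation p = 0.0606) and rho = 0.57 (permutation p = 0.0581).

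**Figure D4:**
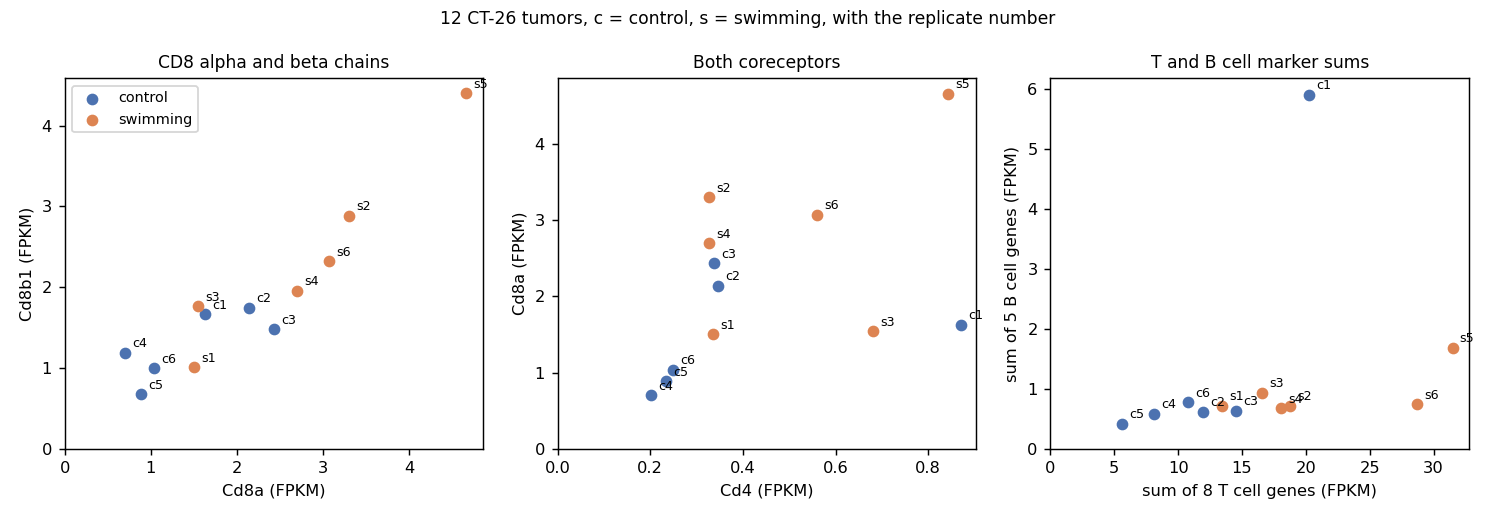
FPKM in each tumor (c, control; s, swimming; with tumor number) of Cd8b1 against Cd8a, of Cd8a against Cd4, and of the sum of 5 B cell genes against the sum of 8 T cell genes. The CD8 chains follow each other (r = 0.90 on the log2 scale), Cd8a is above Cd4 in every tumor, and control 1 lies far above the other tumors in B cell genes at 5.91 FPKM.

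Control 1 and swimming 5 had the highest summed level of the 10 genes in their groups. Control 1 had the highest control value for 7 of the 10 genes, along with the B cell and fat cell genes given above. Of 5 genes listed for lymph node stroma, Ccl21a and Glycam1 had no values. The other 3, Cr2, Fcer2a and Madcam1, summed to 1.10 FPKM in control 1 and to at most 0.104 in other controls. Swimming tumors reached at most 0.287 FPKM (swimming 3), and all 3 genes were too low to be tested. Cr2 and Fcer2a are also carried by B cells, so this sum is not separate from the B cell genes. Swimming 5 also had the highest B cell and fat cell sums of its group (1.68 and 27.2 FPKM), and fibroblast genes summed to 774 FPKM in control 1 and 739 FPKM in swimming 5. Without control 1, all 10 genes were higher at an unadjusted limma p below 0.05, against 3.7% of all genes tested. Without swimming 5 the number was 4, against 2.31%. Without swimming 1, which was the lowest of its group for 8 genes, it was 8, against 4.54%. Without control 1 and swimming 5 together it was 6, against 2.73%, and the median log2 fold change was 0.37. Without control 4 it was 5, against 2.67%. With the replicate number as a block, although the numbers did not pair the tumors, it was 4, against 2.37%. These tumors were singled out after their values were seen, and the part of lymph node or fat tissue in them was not tested.

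Ptprc encodes CD45, the phosphatase on all leukocytes that also acts on LCK. Its level was 3.05, 3.86 and 4.23 FPKM (lowest, median and highest) in controls and 3.32, 4.46 and 6.27 FPKM in swimming tumors. Its log2 fold change was 0.24 ± 0.11 (SE; limma, unadjusted p = 0.0519). With log2 of Ptprc as a covariate, the 10 genes had a median log2 fold change of 0.11 in place of 0.39. Cd3d was then the only one at an unadjusted p below 0.05 (limma, 0.0336), against 1.66% of all genes tested that were higher. Cd4 was at -0.0053 and Cd247 at -0.0067. The covariate was added after the data were seen, and Ptprc is itself made by T cells among other leukocytes.

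Other genes of the pathway were taken from fixed lists. Of 35 genes of proximal signaling, 33 were tested. At an unadjusted limma p below 0.05, 4 were higher and 1 was lower, with a median log2 fold change of 0.09, and 3.11% of all genes tested were higher and 2.46% lower at that threshold. Fyb, an adaptor that links the receptor to integrins, was 6.53 ± 0.456 FPKM in controls and 8.36 ± 1.19 FPKM in swimming tumors. No control reached the lowest swimming tumor at 7.25 FPKM, and all swimming tumors were above all controls for 0.0789% of all genes tested. The log2 fold change of Fyb was 0.31 ± 0.08 (SE; limma, unadjusted p = 0.00213, adjusted p = 0.889). The adaptors Lcp2 (SLP-76) and Lat had log2 fold changes of 0.24 and 0.30 (limma, unadjusted p = 0.0278 and 0.0437). Sla, an adaptor that lowers receptor levels, was at 2.10 ± 0.366 FPKM in controls and 1.62 ± 0.258 FPKM in swimming tumors (limma, unadjusted p = 0.0229). Fyb, Lcp2 and Sla are also expressed in myeloid cells, whose share in these values was not tested.

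Of 20 costimulatory and adhesion receptors, 18 were tested and 5 were higher at an unadjusted limma p below 0.05, with none lower and a median log2 fold change of 0.10, beside 3.11% higher and 2.46% lower of all genes tested. Cd5, which dampens receptor signals, was 0.243 ± 0.172 FPKM in controls and 0.652 ± 0.241 FPKM in swimming tumors (SD, n = 6 each), and all 6 swimming tumors were above the control median. Its log2 fold change was 0.41 ± 0.11 (SE; limma, unadjusted p = 0.00278, adjusted p = 0.889). The others were Icos, Cd27, Cd6 and Cd226, with log2 fold changes of 0.25, 0.33, 0.24 and 0.28. All of them were weak. With a filter of 1 FPKM, which removed weak genes, only 8 of the list were still tested and none of these was past that threshold. Of 13 transcription factors of the T lineage, all 13 were tested and 0 were at an unadjusted limma p below 0.05, with a median log2 fold change of 0.08.

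Outside the 10 genes, likeness was measured as Pearson's r over the 12 tumors with the mean standardized level of the 4 CD3 chains, both taken as deviations from the group means. The 8 genes most like them were Gm16224 and Cd226 (r = 0.92 each), Ms4a4b and Psmb9 (0.92 each), Pim2 (0.92), and Nrgn, Ighm and Gimap3 (0.91 each). They are the top of 19018 genes ranked over only 12 tumors, and how high r would reach by chance was not computed. Ms4a4b is a membrane protein of T cells, Cd226 an activating receptor of T and NK cells, Psmb9 a subunit of the immunoproteasome and Ighm the heavy chain of IgM. Psmb9 was by far the strongest of them, at 15.5 ± 4.34 FPKM in controls and 22.4 ± 6.52 FPKM in swimming tumors (limma, unadjusted p = 0.0400). Gm16224 was no stronger than 0.496 FPKM in any tumor. Among the 10 genes, Cd3g ranked 5 and Cd3e 14 of 19018 on this measure, of which they are themselves a part, and Cd8b1, which is not, ranked 68. Cd3d ranked 806 and Cd2 937.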

How the data were processed

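RNA was sequenced from 12 tumors after ribosomal RNA depletion. The authors mapped the reads with Hisat2 (2.0.5), quantified them with StringTie (1.3.3) and deposited 1 FPKM value per gene and tumor, which is already divided by gene length and depth. The methods name hg38, the processing notes list hg38 and GRCm38, and the files hold mouse Ensembl identifiers. These were matched to GENCODE M21 (GRCm38), which names 30542 of the 30630 genes. Coordinates are those of the annotation. How StringTie divides reads among transcripts, overlapping genes and close copies is part of the deposited values. Read counts were not analysed here, so intervals and tests rest on the spread between tumors alone.

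The sample labels gave group and replicate number. A gene was tested if 6 or more tumors had 0.1 FPKM or more. Groups were compared on log2(FPKM + 1) in limma 3.58.1 under R 4.3.3 (lmFit, then eBayes with trend), without covariate and with Benjamini-Hochberg adjustment. The script was tested on simulated data. Exact permutation tests, two-sided and over 924 divisions, were added for single genes and for ratios (0.1 FPKM added). Their smallest p is 0.00216. Correlations used 100000 permutations (Python 3.11.15, scipy 1.17.1). The alternatives were pseudocounts of 0.1 and 0.01, no filter, a filter of 1 FPKM, quantile normalization, trimmed mean scaling, eBayes without trend, a block for the replicate number, sample weights and omission of each tumor in turn. Leaving out control 1 with swimming 5 and the Ptprc covariate were added after seeing the data.

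The 10 genes and all lists were chosen with earlier results of these data known, so counts over them are not independent evidence. Named are the 10 genes, the receptor chain constants, Ptprc, up to 5 genes of each related list at an unadjusted p below 0.05, and the 8 genes most like the CD3 chains. A gene of the proximal signaling list that this rule names is not reported here. Other genes are markers, of which Xcr1, Flt3 and Klrk1 were named after their values were seen. Further marker lists were those of B cells, plasmacytoid dendritic cells, neutrophils, gamma delta T cells, fibroblasts, endothelium, skeletal muscle, fat and epithelial cells, in which 0 genes were at an unadjusted limma p below 0.05, and lymph node stroma, of which 0 genes were tested. Nothing in the labels pairs tumors apart from their numbers: same-numbered tumors came from different mice.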

Additional observations from a re-analysis of the deposited data

Results flagged for a closer look

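Of 50 sets of 6 values examined, 2 held a tumor whose gap to the nearest of the others exceeded the share of the range given by Dixon's critical value at 95%, and 2.5 would be found by chance. Both were in the control group and both belonged to control 1. Cd3e was 1.04 FPKM in control 1 and between 0.240 and 0.528 FPKM in the other 5 control tumors. Cd4 was 0.870 FPKM in control 1 and between 0.203 and 0.346 FPKM in the other 5. The same tumor had the highest summed B cell genes (5.91 FPKM) and fat cell genes (73.8 FPKM) of its group, and the part of these tissues in its Cd3e and Cd4 values was not tested.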

How the results depend on the processing

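Under 23 alternatives per gene, 223 of 225 fold changes of the 10 genes kept their direction and stayed short of an adjusted p of 0.05. The exceptions were Cd247 and Cd4, at -0.0067 and -0.0053 with the Ptprc covariate, which left 1 of the 10 genes at an unadjusted limma p below 0.05. With it, 2 genes of proximal signaling (1 higher, 1 lower), 0 receptor chains and 3 of costimulation (2 higher, 1 lower) were at that threshold. Of all 19018 genes tested, 315 were higher and 452 lower at the same threshold. Replicate numbers did not pair the tumors: deviations of same-numbered tumors had a mean r of -0.12 (other pairs 0.02), 0 of 6 exceeded 0.1, and no tumor matched its own number best. With the replicate block, 4 of the 10 genes were at an unadjusted limma p below 0.05 (2.37% of all genes tested were higher), and Cd8b1 was at 0.0596. With the block the counts were 1 for proximal signaling, 1 for receptor chains and 2 for costimulation, beside 892 of all 19018 genes tested. With the filter of 1 FPKM, 0 genes of costimulation were called because the weak genes were no longer tested. Without a filter 1 T lineage factor was called, beside 1445 of all 30630 genes. Sample weights gave 1 gene of the whole table an adjusted p below 0.05. With a pseudocount of 1 the group differences in log2 ratio of Lck and Zap70 to Cd3e turned to 0.088 and 0.017. With a pseudocount of 0.1 the correlation of Cd3e and Cd2 was 0.58 (adjusted permutation p = 0.0466). Without the 2 tumors farthest from the median, r was 0.62 for Cd3d with Cd3g, and for Cd3e it was 0.47 with Cd247, 0.34 with Cd4, 0.63 with Lck, 0.50 with Zap70 and 0.46 with Ptprc, none then past an adjusted p of 0.05. The causes were not tested.

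Leaving out each tumor in turn gave 4 to 10 of the 10 genes at an unadjusted limma p below 0.05, with 10 without control 1 and 8 without swimming 1. Counts ranged from 2 to 11 for proximal signaling (11 without swimming 1, 2 without control 6 or swimming 5, 3 without control 3, 4 or 5) and from 2 to 3 for receptor chains. They ranged from 2 to 7 for costimulation (2 without control 5, 3 without swimming 2, 5 or 6) and from 0 to 2 for T lineage factors (1 without control 2, 2 without swimming 1). The count over all genes tested also moved, from 820 without control 5 to 1427 of 18771 without swimming 1, against 1058 with all tumors. It was 874 of 18733 without control 6, 854 of 18720 without swimming 5 and 1334 of 18804 without control 3. Of all genes tested, 0 to 3 reached an adjusted p below 0.05, with 3 without control 4 and 2 without swimming 1. Differences in log2 ratio changed sign for Cd8b1 to Cd8a (-0.25 to 0.021, without control 4), Cd3g to Cd3e (-0.016 to 0.18, at -0.016 without control 1 and -0.014 without swimming 3) and Zap70 to Cd3e (-0.24 to 0.049, at 0.047 without control 4, 0.049 without swimming 2 and 0.025 without swimming 4). Levels were low, with Cd247 and Cd4 below 1 FPKM in every tumor, and how far counting error limits these values was not tested.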
